A study of Mus musculus with 18 samples.

Results

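The 40 genes described here are type I interferon-stimulated genes, the antiviral and regulatory genes that mouse cells switch on after interferon alpha or beta. They were chosen by name, as a set of well-known targets of the pathway, and all 40 were found among the 55416 genes of the count table. RNA-seq had been made from the resected peritumoral area of 18 brains with experimental metastases, 6 brains for each of 3 tumour models. The melanoma model carried B16-F10-BrM4 cells (replicates 1 to 6), the lung model 482N1 cells (replicates 7 to 11 and 13) and the breast model EO771-BrM3 cells (replicates 14 to 19). Each group stands for the cell line named and no other line of that cancer. Every brain was labelled WT and was taken 10 days after injection of 40000 cells. No source used here gives the host strain, sex, age or route of injection, and a brain without tumour was not analysed here, so that all values compare tumour models with each other.

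Type I interferons bind a receptor made of the chains IFNAR1 and IFNAR2. The kinases JAK1 and TYK2 then activate the factor ISGF3, which contains STAT2 and IRF9 and binds the interferon-stimulated response element in the promoters of its targets. In the brain, microglia, astrocytes, endothelium, neurons and infiltrating leukocytes can all answer this signal, as can tumour cells. Interferon gamma acts through another receptor and a different promoter element, the gamma-activated sequence (GAS), and many genes answer to both kinds of interferon.

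Promoter windows reaching from 250 bases before to 50 bases after the transcription start were taken from RefSeq on GRCm38.p6. They were matched by symbol for 29 of the 40 genes, in 33 windows, since a few genes have several starts. Usp18, Oas2, Dhx58, Zbp1, Mx1, Mx2, Parp9, Parp14, Ifi27, Ifi27l2a and Rtp4 had no entry. The core of the response element was searched on both strands as a block GAAA, any 2 bases and another block GAAA, and overlapping matches were kept. It occurred in 15 of the 29 genes and in 17 of the 33 windows (51.5%), against 1131 of all 32851 windows of the same length (3.44%). The gamma-activated sequence, searched as TTCNNNGAA on both strands, occurred in 6 of the 33 windows (18.2%), against 8.3% of all windows. The 8 stretches of 150 bases below, from 170 to 21 bases before the start, belong to genes whose values are described later, 7 with a match and Ifi44 without. They are written in the direction of transcription, in lower case with the matches of the response element core on either strand in capitals, so that a match on the other strand appears as a pair of TTTC blocks.

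Isg15 (chr4:156200839-156200988, minus strand, GRCm38.p6): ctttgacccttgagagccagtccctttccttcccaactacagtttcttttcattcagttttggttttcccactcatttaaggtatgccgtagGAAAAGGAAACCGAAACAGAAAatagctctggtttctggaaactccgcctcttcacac
Ifit1 (chr19:34640719-34640868, plus strand, GRCm38.p6): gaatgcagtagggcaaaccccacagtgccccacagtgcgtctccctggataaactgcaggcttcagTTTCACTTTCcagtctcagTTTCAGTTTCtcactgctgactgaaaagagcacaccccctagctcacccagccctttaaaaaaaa
Ifit3 (chr19:34583359-34583508, plus strand, GRCm38.p6): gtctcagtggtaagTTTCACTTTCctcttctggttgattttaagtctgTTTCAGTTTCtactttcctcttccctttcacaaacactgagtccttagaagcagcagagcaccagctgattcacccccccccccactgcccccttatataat
Oas3 (chr5:120777680-120777829, minus strand, GRCm38.p6): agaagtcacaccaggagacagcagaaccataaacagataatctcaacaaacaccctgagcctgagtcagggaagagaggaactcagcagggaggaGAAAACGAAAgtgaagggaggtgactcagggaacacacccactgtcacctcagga
Rsad2 (chr12:26456473-26456622, minus strand, GRCm38.p6): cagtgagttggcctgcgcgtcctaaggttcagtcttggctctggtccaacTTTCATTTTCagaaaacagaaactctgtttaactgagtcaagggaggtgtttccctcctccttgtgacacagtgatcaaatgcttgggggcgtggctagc
Bst2 (chr8:71537493-71537642, minus strand, GRCm38.p6): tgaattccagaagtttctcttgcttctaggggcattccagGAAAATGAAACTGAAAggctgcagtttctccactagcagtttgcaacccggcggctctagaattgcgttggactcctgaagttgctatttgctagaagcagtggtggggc
Slfn5 (chr11:82951932-82952081, plus strand, GRCm38.p6): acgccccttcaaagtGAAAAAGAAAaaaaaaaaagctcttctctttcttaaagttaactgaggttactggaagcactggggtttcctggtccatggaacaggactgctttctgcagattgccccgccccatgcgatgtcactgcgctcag
Ifi44 (chr3:151749931-151750080, minus strand, GRCm38.p6): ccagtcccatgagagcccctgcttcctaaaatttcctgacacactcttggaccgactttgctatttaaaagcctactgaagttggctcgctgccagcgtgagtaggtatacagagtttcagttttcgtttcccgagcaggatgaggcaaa

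The matches sit at different distances from the start. The nearest match began 66 bases before the start in Isg15, where 3 matches overlap in a tandem run, 75 bases before it in Oas3, 85 in Ifit1, 120 in Rsad2, 122 in Ifit3, 124 in Bst2 and 155 in Slfn5. Ifit1 and Ifit3 both carry 2 separate matches on the other strand. No match was found in the windows of 14 genes, Ifi44, Oasl1, Cmpk2, Helz2 and Samd9l among them, which says only that these letters are not in this stretch.

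**Figure D1:**
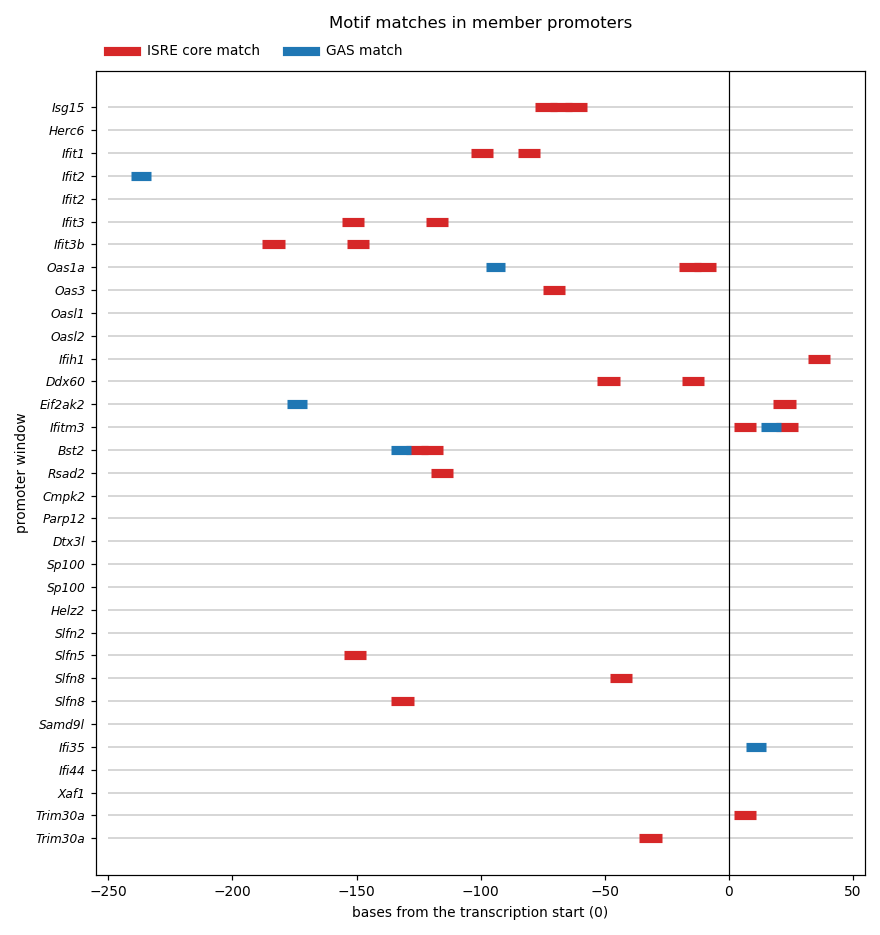
Positions of motif matches in the promoter windows of the 29 matched interferon-stimulated genes; each grey line is 1 window, the x axis is the distance in bases from the transcription start at 0, red marks the response element core (ISRE) and blue marks TTCNNNGAA (GAS) on either strand. Red marks appear in 17 of the 33 windows and blue marks in 6.

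The libraries held 7366250 to 14533877 counts, and a floor of 3 counts a library corresponds to 0.206 to 0.407 CPM. All 40 genes passed the filter on low counts. Over all libraries together they held 1947 to 33816 reads each, and Zbp1 was the only gene of the set with a library at 0 (melanoma replicate 6). Levels are given as CPM on TMM-scaled library sizes, as the lowest, the median and the highest of the 6 libraries of a model. Differences are log2 fold changes ± SE of edgeR's quasi-likelihood fit over all 18 libraries, and were called at a Benjamini-Hochberg adjusted p under 0.05 over 17174 genes. Because the tissue was sequenced in bulk, fewer cells of a type and less RNA per cell cannot be told apart, and tumour RNA was present. Neuronal markers summed to 2010 to 5035 CPM in every library, with 1 of the 5 (Tubb3) listed at 0. Melanocyte genes summed to 3651 to 22827 CPM in melanoma libraries and to at most 8.27 CPM elsewhere. Simple epithelial genes summed to 309 to 1316 CPM in lung, 66.2 to 167 CPM in breast and 4.78 to 5.78 CPM in melanoma libraries. In breast the sum was mostly Krt8, at 58.7 to 161 CPM. Krt18, Krt19, Epcam and Cdh1 each lay between 0 and 3.52 CPM there.

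The interferon-stimulated genes were highest in the breast model, intermediate in the lung model and lowest in the melanoma model. Mean CPM followed the order breast, lung, melanoma for 38 of the 40 genes, the exceptions being Rsad2 and Ifi27, against 20.6% of all genes tested. Summed over the 40 genes, the level was 305, 491 and 2325 CPM (lowest, median, highest library) in melanoma, 791, 1877 and 2982 CPM in lung and 2738, 4034 and 5599 CPM in breast. All breast libraries therefore lay above all melanoma libraries in this sum, whereas lung overlapped both other models. A difference among the models was called for 38 of the 40 genes, against 35.8% of all genes tested. Zbp1 and Ifi27 were the 2 genes called in no contrast.

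**Figure D2:**
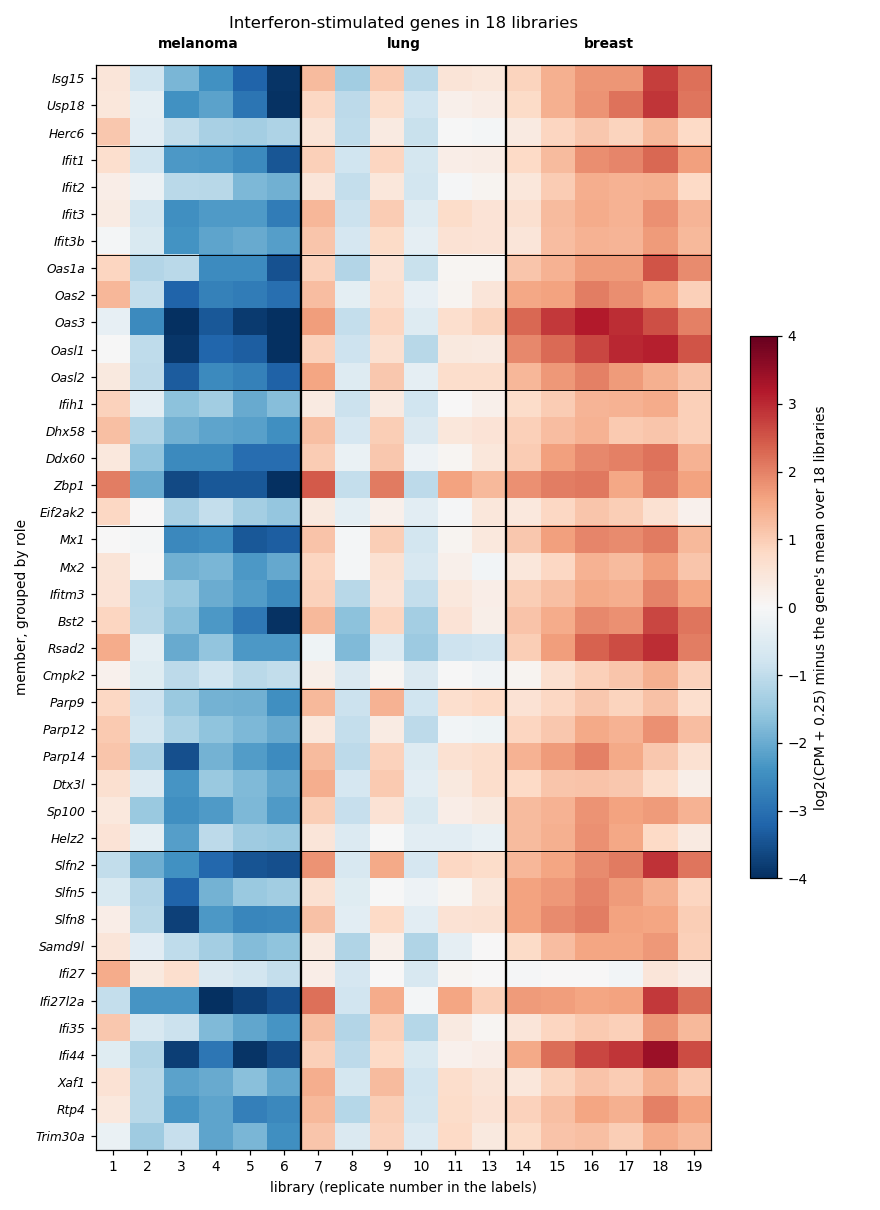
Level of each of the 40 interferon-stimulated genes in each of the 18 libraries, as log2(CPM + 0.25) minus the gene's mean over all libraries; rows are genes in role groups, columns are libraries by replicate number, and values beyond the ends of the scale take the end colour. Melanoma replicate 1 stands above melanoma replicates 2 to 6, and lung replicates 8 and 10 stand below the other lung libraries.

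The comparison of melanoma with breast held most of the calls. Against breast, 38 of the 40 genes were lower in melanoma and 0 were higher, where 19.2% of all genes tested were called lower and 9.76% higher. The median log2 difference of the 40 genes was −2.55, beside 0.04 for all genes tested. For 23 genes every melanoma library lay below every breast library, against 12.1% of all genes tested.

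Compared with lung, 18 of the 40 genes were lower in melanoma and 0 were higher, against 14.7% of all genes tested called lower and 8.51% called higher. The median log2 difference was −1.42, beside 0.02 for all genes. Complete separation of the libraries was seen for 3 genes (Slfn2, Slfn5 and Ifi27l2a), against 9.63% of all genes tested, so this share is not above the background.

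Between breast and lung, 13 of the 40 genes were higher in breast and 0 were lower, where 11.2% of all genes tested were called higher and 7.16% lower. The fitted difference was positive for all 40 genes, with a median of 1.18, beside −0.02 for all genes. The libraries did not overlap for 11 genes, against 8.94% of all genes tested. The 3 contrasts share their groups pairwise, so their counts are not independent of each other. At an unadjusted p under 0.05 edgeR gave 39, 28 and 25 genes in these 3 contrasts, and neither DESeq2 nor limma's voom test called any of the 40 in the directions with 0 calls.

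Melanoma was lower than both other models for 18 genes (10.2% of all genes tested), and breast was higher than both for 13 genes (7.79%). Oas3, Oasl1, Sp100, Slfn5 and Ifi44 belonged to both sets, so that all 3 models were told apart for these 5 genes (2.17% of all genes tested).

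**Figure D3:**
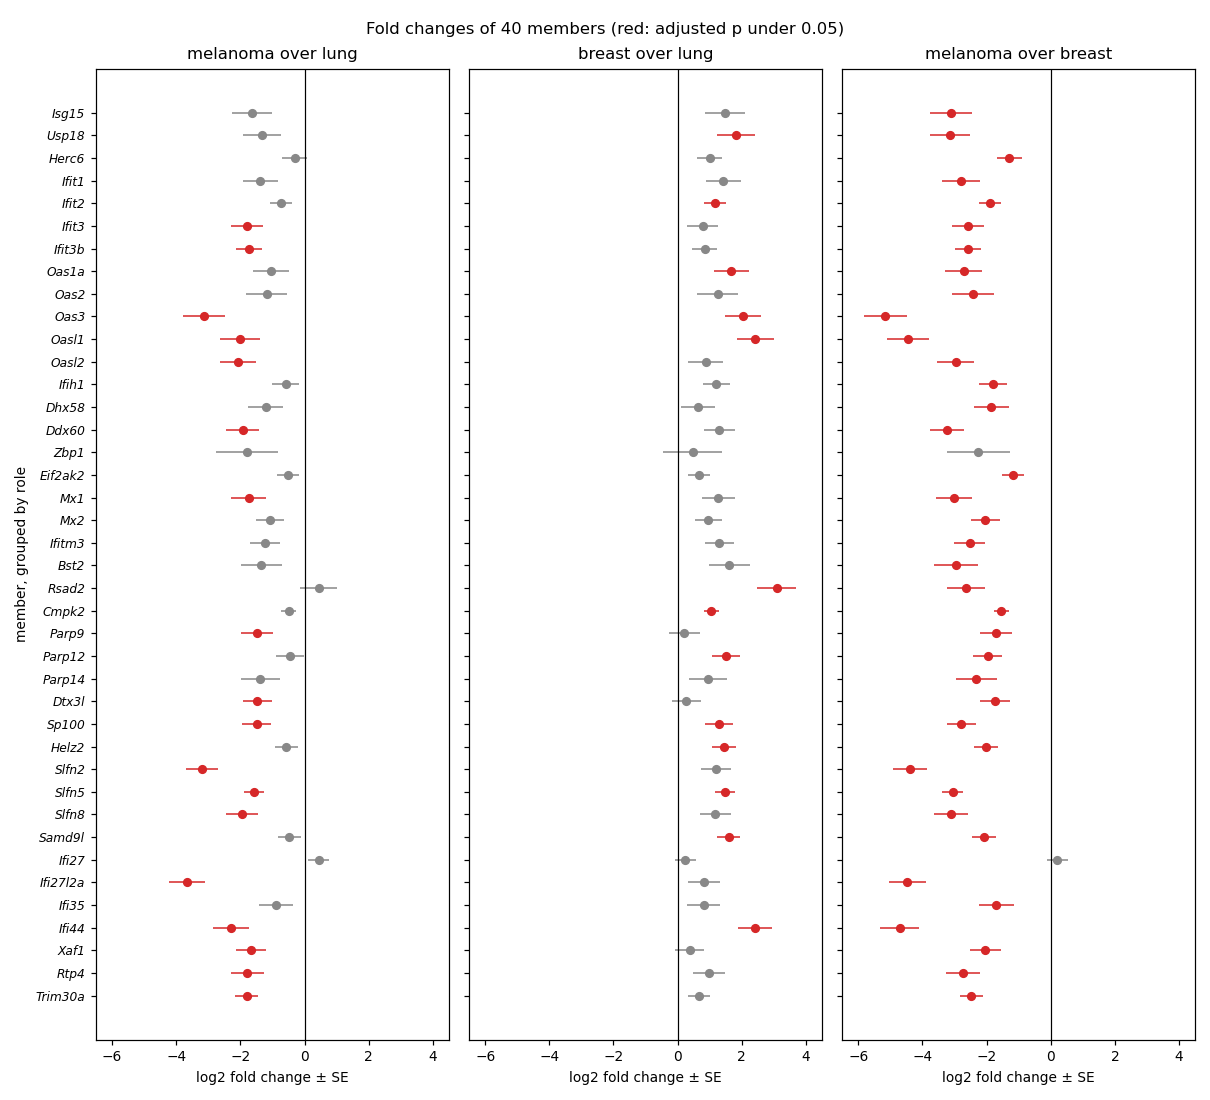
Log2 fold changes of the 40 interferon-stimulated genes in the 3 contrasts, with SE bars; red points have an adjusted p under 0.05. Points lie left of 0 for melanoma against breast in all genes but Ifi27, and right of 0 for breast against lung in all 40.

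The libraries of a model did not share 1 level. Melanoma replicate 1 was the highest melanoma library for all 40 genes, with a summed level of 2325 CPM beside 305 to 894 CPM in the other 5. Lung replicates 8 and 10 were the 2 lowest lung libraries for 39 genes, all but Mx2, with sums of 791 and 876 CPM beside 1842 to 2982 CPM. For 37 genes melanoma replicate 1 lay above lung replicates 8 and 10, the exceptions being Slfn2, Slfn5 and Ifi27l2a.

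Breast libraries varied least. The highest library exceeded the lowest by a median of 2.17-fold over the genes in breast, 3.75-fold in lung and 9.32-fold in melanoma, the last over the 39 genes with no library at 0. Breast replicate 18 was the highest breast library for 27 genes, whose median transcript length was 2.79 kb. For the other 13 genes, with a median length of 5.72 kb, breast replicate 16 was the highest. Breast replicates 18 and 19 and melanoma replicate 3 gave fewer reads to long transcripts than the other libraries: per doubling of transcript length, over all genes of at least 1 CPM, their log2 level relative to the mean library changed by −0.24, −0.20 and −0.20, beside −0.11 to 0.17 in the others. The part of this in the levels of long genes was not tested.

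These libraries bear on the counts. In the 18 fits that each left out 1 library, 35 of the 38 melanoma to breast calls, 12 of the 18 melanoma to lung calls and 8 of the 13 breast to lung calls held throughout. Without melanoma replicate 1, 38 genes were lower in melanoma than in lung and 23 were higher in breast than in lung, and the median log2 difference of the 40 genes moved from −1.42 to −2.29 for melanoma to lung and from −2.55 to −3.42 for melanoma to breast. With lung replicates 8 and 10 also left out, 38 genes were lower in melanoma than in lung, all 18 of the full data among them, and 15 were higher in breast than in lung, sharing 11 of the 13. These 3 libraries were chosen knowing that they hold the highest melanoma and the lowest lung levels of immune genes, so the rise of the melanoma to lung count follows from the choice and is no sign of stability. Leaving out lung replicate 8, lung replicate 10 or breast replicate 18 alone left 8 genes higher in breast than in lung. With breast replicates 18 and 19 and melanoma replicate 3 all left out, 17 genes were lower in melanoma than in lung and 8 were higher in breast than in lung.

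ISG15 is a ubiquitin-like protein that is attached to other proteins after interferon exposure, HERC6 is the mouse ligase that attaches it, and USP18 removes it and also restrains the interferon receptor. All 3 genes were lower in melanoma than in breast, 1 (Usp18) was higher in breast than in lung and none was called between melanoma and lung, where edgeR gave 2 at an unadjusted p under 0.05. Of all genes tested, 14.7% were called lower in melanoma than in lung and 19.2% lower than in breast. Between breast and lung, 11.2% were called higher in breast. These shares are the background for this and the following role groups. Isg15 stood at 2.97, 11.03 and 67.6 CPM in melanoma, 18.3, 68.0 and 117 CPM in lung and 88.8, 165 and 330 CPM in breast. Its breast libraries were all above its melanoma libraries, while the lung range overlapped both. The melanoma to breast difference of Isg15 was −3.12 ± 0.65 (adjusted p = 0.00102), and those of melanoma to lung (−1.64 ± 0.62, adjusted p = 0.0662) and breast to lung (1.48 ± 0.61, adjusted p = 0.108) did not pass.

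Usp18 measured 1.65, 5.88 and 39.9 CPM in melanoma, 14.1, 35.0 and 51.8 CPM in lung and 50.2, 116 and 212 CPM in breast. Only the lowest breast library (replicate 14) fell within the lung range. Usp18 was higher in breast than in lung by 1.82 ± 0.58 (adjusted p = 0.0357), a call lost in 8 of the 18 fits that left out 1 library (adjusted p of 0.0135 to 0.0951 over the 18). Against breast it was lower in melanoma by −3.15 ± 0.62 (adjusted p = 0.000551). Herc6 had a smaller melanoma to breast difference, −1.30 ± 0.39 (adjusted p = 0.016), which was lost without melanoma replicate 4 (adjusted p = 0.0545).

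IFIT proteins bind foreign RNA and hold back its translation. All 4 Ifit genes were lower in melanoma than in breast with no overlap of libraries, Ifit3 and Ifit3b were lower in melanoma than in lung, and Ifit2 was higher in breast than in lung. Ifit3b ranged over 4.94, 6.31 and 25.4 CPM in melanoma, 16.96, 40.5 and 58.4 CPM in lung and 37.9, 68.5 and 88.9 CPM in breast. Melanoma replicates 1 and 2 reached the lower lung libraries, and the others stayed below all of them. Ifit3b was lower in melanoma than in lung by −1.74 ± 0.40 (adjusted p = 0.00276) and than in breast by −2.58 ± 0.41 (adjusted p = 6.22e-05), and differed from lung by 0.84 ± 0.38 in breast (adjusted p = 0.153). Ifit3 and Ifit3b are near-identical copies, and no source used here says how reads shared by them were assigned.

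Ifit2 was measured at 16.9, 30.1 and 78.1 CPM in melanoma, 33.5, 65.5 and 90.4 CPM in lung and 87.5, 151 and 175 CPM in breast. The lowest breast library lay just inside the top of the lung range. Ifit2 exceeded lung by 1.15 ± 0.34 in breast (adjusted p = 0.0243), a call lost in 6 of the 18 fits without 1 library (adjusted p of 0.00982 to 0.0599). Its melanoma to breast difference was −1.90 ± 0.35 (adjusted p = 0.000329). Ifit1, whose promoter is among those printed, differed by −2.80 ± 0.58 between melanoma and breast (adjusted p = 0.000915) and was called in neither contrast with lung.

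OAS1A, OAS2 and OAS3 belong to the oligoadenylate synthetase family, which makes the short messenger that activates RNase L on sensing double-stranded RNA, and OASL1 and OASL2 are OAS-like relatives. The group had some of the widest differences of the set. All 5 genes were lower in melanoma than in breast, 3 (Oas3, Oasl1, Oasl2) were lower in melanoma than in lung, and 3 (Oas1a, Oas3, Oasl1) were higher in breast than in lung.

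Oas3 stood at 0.157, 0.371 and 5.66 CPM in melanoma, 3.58, 12.3 and 23.7 CPM in lung and 29.9, 48.8 and 67.6 CPM in breast. Every breast library was above every lung library, and only melanoma replicate 1 reached into the lung range, while the lowest melanoma library held 2 reads. Oas3 was lower in melanoma than in lung by −3.12 ± 0.65 (adjusted p = 0.00117), higher in breast than in lung by 2.03 ± 0.56 (adjusted p = 0.0155) and lower in melanoma than in breast by −5.16 ± 0.68 (adjusted p = 7.32e-06), the largest difference of the 40 genes. These 3 calls held in all 18 fits that left out 1 library.

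Oasl1, which restrains the translation of the factor IRF7, measured 0.248, 0.882 and 10.3 CPM in melanoma, 4.73, 13.6 and 19.9 CPM in lung and 40.6, 64.1 and 91.6 CPM in breast. Breast again stood clear of both other models, and melanoma replicates 1 and 2 overlapped lung. The differences were −2.02 ± 0.62 for melanoma to lung (adjusted p = 0.0213), 2.42 ± 0.59 for breast to lung (adjusted p = 0.00599) and −4.44 ± 0.66 for melanoma to breast (adjusted p = 2.73e-05). Its call between melanoma and lung was lost without melanoma replicate 4 or lung replicate 7 (adjusted p of up to 0.0614).

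Oasl2 measured 5.72, 9.47 and 78.3 CPM in melanoma, 42.0, 97.2 and 180 CPM in lung and 131, 178 and 240 CPM in breast. Melanoma replicate 1 lay within the lung range and the others below it, and the highest lung library lay within the breast range. Oasl2 was lower in melanoma than in lung by −2.09 ± 0.56 (adjusted p = 0.0092), and its breast to lung difference of 0.87 ± 0.54 did not pass (adjusted p = 0.309). Oas1a has close copies in the mouse genome, so its counts are uncertain where reads could be split. Its breast libraries were all above lung (1.68 ± 0.56, adjusted p = 0.0431), a call lost in 11 of the 18 fits without 1 library.

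**Figure D4:**
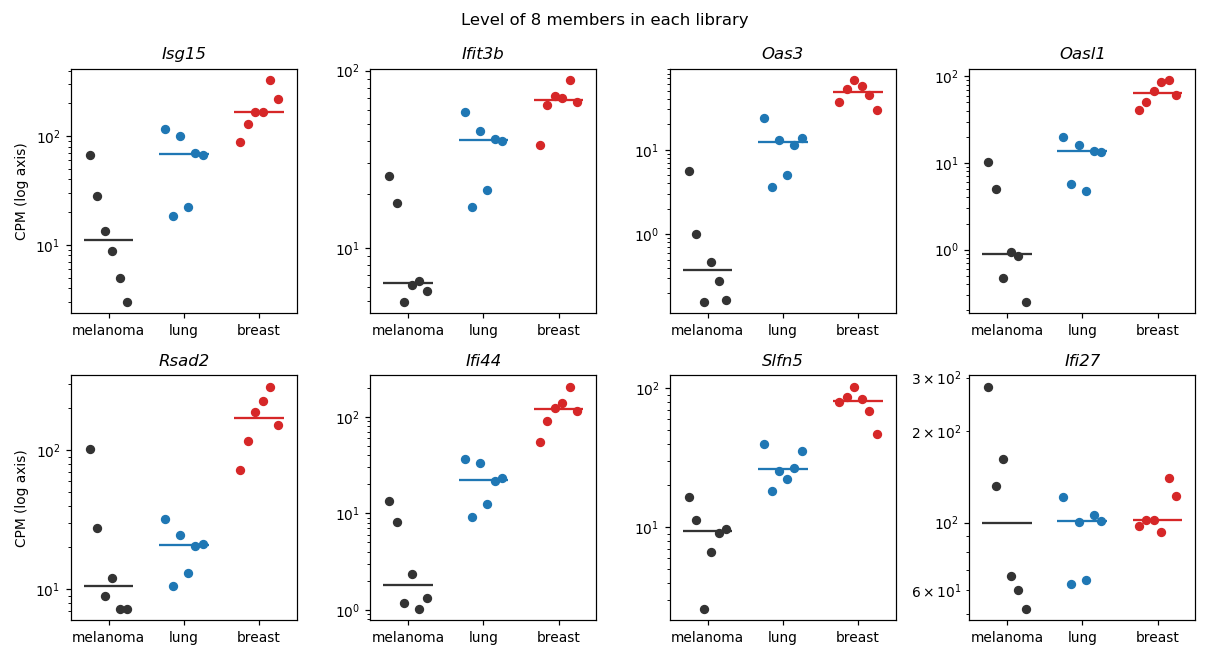
CPM (log axis) of 8 interferon-stimulated genes in each library of the 3 models; points are libraries in replicate order and the horizontal line is the median of 6. Oas3, Oasl1, Rsad2, Ifi44 and Slfn5 have all breast points above all lung points, and Ifi27 has overlapping ranges in all 3 models.

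Among the 40 genes, 5 encode sensors of RNA or other nucleic acids. IFIH1 (MDA5) recognizes long double-stranded RNA, DHX58 (LGP2) assists it, DDX60 is a helicase linked to the same pathway, ZBP1 senses Z-form nucleic acid and can start necroptosis, and EIF2AK2 (PKR) stops translation on binding double-stranded RNA. In melanoma 4 of the 5 were lower than in breast (all but Zbp1) and 1 (Ddx60) was lower than in lung, and none was called between breast and lung, where edgeR gave 2 at an unadjusted p under 0.05. The 1 call between melanoma and lung is near the share of all genes tested, 14.7%.

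Ddx60 stood at 0.908, 1.40 and 12.6 CPM in melanoma, 7.86, 11.4 and 20.3 CPM in lung and 19.4, 33.5 and 42.9 CPM in breast. Melanoma replicate 1 alone reached the lung range. Ddx60 was lower in melanoma than in lung by −1.93 ± 0.52 (adjusted p = 0.01) and than in breast by −3.23 ± 0.54 (adjusted p = 0.000109), and breast differed from lung by 1.30 ± 0.49 (adjusted p = 0.0766).

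Ifih1 was measured at 7.05, 10.0 and 55.5 CPM in melanoma, 16.03, 31.6 and 37.7 CPM in lung and 48.0, 66.8 and 81.4 CPM in breast. All breast libraries lay above all lung libraries, and melanoma replicate 1 lay above all lung libraries too. Ifih1 was lower in melanoma than in breast by −1.80 ± 0.42 (adjusted p = 0.00284), and the breast to lung difference of 1.21 ± 0.42 missed the threshold (adjusted p = 0.0504).

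Zbp1 had the largest standard errors of the 40 genes. It was listed at 0, 1.67 and 83.6 CPM in melanoma, 9.46, 55.7 and 110 CPM in lung and 59.1, 77.8 and 87.9 CPM in breast. Melanoma replicate 1 reached the breast range, and melanoma replicates 2 to 6 were below all lung and breast libraries. No contrast passed, with −1.80 ± 0.96 for melanoma to lung (adjusted p = 0.217), 0.46 ± 0.92 for breast to lung (adjusted p = 0.785) and −2.26 ± 0.97 for melanoma to breast (adjusted p = 0.0931).

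Another 6 genes act on virus entry, replication or release. MX1 and MX2 are dynamin-like GTPases, IFITM3 hinders fusion of viruses in endosomes, BST2 (tetherin) holds budding particles at the surface, and RSAD2 (viperin) and its neighbour CMPK2 act on nucleotides. All 6 were lower in melanoma than in breast, Mx1 was lower in melanoma than in lung, and Rsad2 and Cmpk2 were higher in breast than in lung. The 1 call between melanoma and lung is near the share of all genes tested, 14.7%. Per kilobase of transcript, Ifitm3 and Bst2 had the highest mean levels of the 40 genes in breast, 457 and 380 CPM per kb, where the median gene had 23.3 CPM per kb. Both were lower in melanoma than in breast without overlap, Ifitm3 by −2.53 ± 0.48 (adjusted p = 0.000404) and Bst2 by −2.96 ± 0.68 (adjusted p = 0.00225).

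For Rsad2 the mean was higher in melanoma than in lung, which rests on melanoma replicate 1, at 102 CPM beside 7.23 to 27.7 CPM in the other melanoma libraries. The medians followed the order breast, lung, melanoma. Rsad2 stood at 7.23, 10.6 and 102 CPM in melanoma, 10.6, 20.9 and 32.1 CPM in lung and 72.4, 171 and 286 CPM in breast. Every breast library exceeded every lung library, and melanoma replicate 1 exceeded every lung library and the lowest breast library. Rsad2 had the largest breast to lung difference of the 40 genes, 3.09 ± 0.61 (adjusted p = 0.00106), and was lower in melanoma than in breast by −2.65 ± 0.60 (adjusted p = 0.00192). Between melanoma and lung it differed by 0.44 ± 0.57 (adjusted p = 0.665).

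Cmpk2, which lies beside Rsad2 on chromosome 12 in the opposite direction, showed less spread. Its levels were 30.8, 34.8 and 72.9 CPM in melanoma, 43.3, 61.2 and 76.96 CPM in lung and 70.4, 125 and 175 CPM in breast. Melanoma replicates 1 and 2 and breast replicate 14 fell within the lung range. Cmpk2 was higher in breast than in lung by 1.05 ± 0.24 (adjusted p = 0.00337) and lower in melanoma than in breast by −1.55 ± 0.24 (adjusted p = 4.54e-05), with −0.50 ± 0.23 between melanoma and lung (adjusted p = 0.151).

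PARP9 and DTX3L form a ubiquitin ligase complex, PARP12 and PARP14 transfer ADP-ribose, SP100 is a component of nuclear bodies, and HELZ2 is a nuclear helicase and coactivator. All 6 genes were lower in melanoma than in breast, 3 (Parp9, Dtx3l, Sp100) were lower in melanoma than in lung and 3 (Parp12, Sp100, Helz2) were higher in breast than in lung. Of the calls between melanoma and lung, that of Parp9 was lost in 9 of the 18 fits without 1 library (adjusted p up to 0.103), that of Dtx3l in 5 and that of Sp100 in 2. The partners Parp9 and Dtx3l had near-zero breast to lung differences, 0.21 ± 0.49 (adjusted p = 0.815) and 0.27 ± 0.45 (adjusted p = 0.738).

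Sp100 stood at 3.68, 5.10 and 28.7 CPM in melanoma, 11.05, 26.9 and 42.9 CPM in lung and 51.5, 61.4 and 74.7 CPM in breast. Breast was clear of both other models, and melanoma replicate 1 lay among the lung libraries. Sp100 was lower in melanoma than in lung by −1.49 ± 0.44 (adjusted p = 0.0182) and than in breast by −2.78 ± 0.46 (adjusted p = 9.4e-05). Its breast to lung call, 1.29 ± 0.43 (adjusted p = 0.0436), was lost in 13 of the 18 fits without 1 library (adjusted p up to 0.0962).

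Helz2 was measured at 4.94, 9.89 and 34.7 CPM in melanoma, 16.1, 18.3 and 32.9 CPM in lung and 30.6, 60.0 and 83.7 CPM in breast. Melanoma replicate 1 was above all lung libraries, and breast replicate 19 was below the highest lung library. Helz2 was higher in breast than in lung by 1.45 ± 0.37 (adjusted p = 0.00883) and lower in melanoma than in breast by −2.01 ± 0.38 (adjusted p = 0.000355).

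Schlafen proteins act on RNA and on cell growth, SLFN2 being known for keeping T cells quiescent, and SAMD9L restrains translation and growth. All 4 genes of this group were lower in melanoma than in breast with no overlap of libraries, Slfn2, Slfn5 and Slfn8 were lower in melanoma than in lung, and Slfn5 and Samd9l were higher in breast than in lung. Slfn2 stood at 2.23, 4.03 and 13.97 CPM in melanoma, 17.7, 48.7 and 98.5 CPM in lung and 71.1, 112 and 212 CPM in breast. All melanoma libraries, replicate 1 included, were below all lung libraries. Slfn2 was lower in melanoma than in lung by −3.20 ± 0.51 (adjusted p = 7.3e-05) and than in breast by −4.40 ± 0.53 (adjusted p = 2.46e-06), with 1.19 ± 0.46 between breast and lung (adjusted p = 0.0812).

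Slfn5 measured 2.59, 9.37 and 16.6 CPM in melanoma, 18.3, 26.2 and 39.7 CPM in lung and 47.0, 81.3 and 103 CPM in breast. It was the only one of the 40 genes whose libraries separated all 3 models without overlap. The differences were −1.58 ± 0.31 for melanoma to lung (adjusted p = 0.000617), 1.48 ± 0.30 for breast to lung (adjusted p = 0.00138) and −3.06 ± 0.32 for melanoma to breast (adjusted p = 4.55e-07), and all 3 held in the 18 fits without 1 library. Slfn8, which has close relatives in the same gene cluster, was lower in melanoma than in lung by −1.95 ± 0.51 (adjusted p = 0.00772).

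The last 7 genes are interferon-induced proteins of other kinds. RTP4 is a chaperone of membrane receptors, XAF1 binds the apoptosis inhibitor XIAP, TRIM30A belongs to a mouse-specific TRIM family with close copies, and IFI27, IFI27L2A, IFI35 and IFI44 are named for their induction. In melanoma 6 of the 7 were lower than in breast (all but Ifi27) and 5 were lower than in lung (Ifi27l2a, Ifi44, Xaf1, Rtp4 and Trim30a), and Ifi44 was higher in breast than in lung. The 1 call between breast and lung is near the share of all genes tested, 11.2%.

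Ifi44 stood at 1.02, 1.82 and 13.5 CPM in melanoma, 9.10, 22.3 and 36.8 CPM in lung and 54.5, 119 and 205 CPM in breast. All breast libraries were above all others, and melanoma replicate 1 alone fell within the lung range. Ifi44 was lower in melanoma than in lung by −2.29 ± 0.56 (adjusted p = 0.00465), higher in breast than in lung by 2.41 ± 0.54 (adjusted p = 0.00312) and lower in melanoma than in breast by −4.70 ± 0.61 (adjusted p = 5.56e-06).

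Ifi27l2a measured 1.30, 3.37 and 13.1 CPM in melanoma, 14.7, 60.2 and 117 CPM in lung and 75.6, 82.7 and 181 CPM in breast. All melanoma libraries lay below all lung libraries, and lung overlapped breast. It had the largest melanoma to lung difference of the 40 genes, −3.65 ± 0.56 (adjusted p = 5.09e-05), and differed from breast by −4.47 ± 0.58 in melanoma (adjusted p = 5.6e-06).

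Its relative Ifi27 went another way. Ifi27 stood at 51.9, 99.5 and 280 CPM in melanoma, 62.6, 101 and 121 CPM in lung and 93.3, 102 and 140 CPM in breast. The medians of the 3 models lay close together, and the melanoma range covered both others. No contrast passed, with 0.44 ± 0.33 for melanoma to lung (adjusted p = 0.415), 0.24 ± 0.33 for breast to lung (adjusted p = 0.684) and 0.20 ± 0.33 for melanoma to breast (adjusted p = 0.679). Per kilobase, Ifi27 had the highest mean of the 40 genes in melanoma, 85.5 CPM per kb.

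Of 50 genes of the pathway around the set, 38 could be tested. In melanoma 20 were lower and 0 higher than in lung, against 14.7% and 8.51% of all genes tested. Compared with breast, 18 were lower and 1 (Il10rb) higher in melanoma, where 19.2% and 9.76% of all genes tested were called. In breast 4 were higher (Irf9, Ddx58, Mb21d1 and Tbk1) and 1 lower (Ifnlr1) than in lung, where 11.2% and 7.16% of all genes tested were called, so these shares are near or below the background. Of those 4 calls Ddx58 was lost in 13 of the 18 fits without 1 library, Irf9 in 10 and Tbk1 in 3. Type I interferon transcripts themselves were near the limit of detection. Ifnb1, which encodes interferon beta, had 0 to 1 reads a library in melanoma, 0 to 3 in lung and 1 to 6 in breast, in all 2, 7 and 23 reads, and was too low to be tested.

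Ifng, which encodes interferon gamma, had 0 to 7 reads a library in melanoma, 0 to 76 in lung and 2 to 24 in breast. Of the 8 melanoma reads, 7 were in replicate 1, and lung replicates 8 and 10 had 0 reads. Ifng was lower in melanoma than in lung by −4.30 ± 1.08 (adjusted p = 0.00572), a call that limma's voom test did not make (adjusted p = 0.106), and differed from lung by −1.42 ± 0.80 in breast (adjusted p = 0.254).

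Among the receptor genes, Ifnar1 differed by −0.02 ± 0.10 between melanoma and lung (adjusted p = 0.916) and by −0.11 ± 0.10 between breast and lung (adjusted p = 0.498). Ifnar2, the other chain, was lower in melanoma than in lung by −0.70 (adjusted p = 0.00256) and than in breast by −0.82 (adjusted p = 0.000522). Both calls held in the 18 fits without 1 library, and Ifnar2 was not called between breast and lung. Ifngr1, a chain of the interferon gamma receptor, was lower in melanoma than in lung by −0.97 ± 0.10 (adjusted p = 7.39e-07), and Jak2, a kinase of that receptor, by −0.88 ± 0.16 (adjusted p = 0.000405). Ifngr2, Jak1 and Tyk2 were called in no contrast. Ifnlr1, the interferon lambda receptor chain, was lower than in lung both in melanoma (−2.84 ± 0.30, adjusted p = 6.28e-07) and in breast (−2.23 ± 0.29, adjusted p = 1.18e-05).

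Among the factors, Irf7, the inducible driver of type I interferon transcription, followed the order of the set, with 3.96, 7.05 and 41.8 CPM in melanoma, 37.0, 103 and 205 CPM in lung and 182, 276 and 398 CPM in breast. Only melanoma replicate 1 reached the lung range. Irf7 was lower in melanoma than in lung by −2.74 ± 0.55 (adjusted p = 0.000865) and than in breast by −4.09 ± 0.58 (adjusted p = 1.8e-05), with 1.36 ± 0.52 between breast and lung (adjusted p = 0.0804). Irf9, a subunit of ISGF3, was called in all 3 contrasts (melanoma to lung −1.18 ± 0.31, adjusted p = 0.00742, breast to lung 0.91 ± 0.30, adjusted p = 0.0421), the breast to lung call being lost in 10 of the 18 fits without 1 library (adjusted p up to 0.108).

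Stat2 was lower in melanoma than in lung by −1.08 ± 0.33 (adjusted p = 0.0212, lost in 3 of the 18 fits without 1 library) and than in breast by −1.50 ± 0.33 (adjusted p = 0.00161). Irf5 was lower in melanoma than in lung by −2.19 ± 0.30 (adjusted p = 1.44e-05) and did not differ by a called amount between breast and lung (0.47 ± 0.28, adjusted p = 0.286).

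Upstream sensors that were lower in melanoma than in lung included Tlr7 (−2.04 ± 0.20, adjusted p = 2.41e-07), Tlr9 (−1.95 ± 0.51, adjusted p = 0.007) and Trim25, which activates RIG-I (−1.05 ± 0.31, adjusted p = 0.0162, lost in 1 of the 18 fits). Of the negative regulators, Socs1, Socs3 and Samhd1 were lower in melanoma than in lung by −3.77 ± 0.69 (adjusted p = 0.000337), −3.25 ± 0.38 (adjusted p = 1.86e-06) and −2.43 ± 0.49 (adjusted p = 0.000844), and none of the 8 negative regulators tested was called between breast and lung, by edgeR at an unadjusted p under 0.05 either.

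A list of 16 GTPases known for induction by interferon gamma was set beside the 40 genes. Its summed level was 41.9, 76.0 and 1295 CPM in melanoma, 151, 1801 and 4021 CPM in lung and 682, 906 and 1390 CPM in breast. The highest sums were those of lung replicates 7, 9, 11 and 13, all above the highest breast library, which is not the order of the 40 genes. Of the 9 GTPases tested, 4 were lower in melanoma than in lung and 4 were lower than in breast, against 14.7% and 19.2% of all genes tested. Between breast and lung 0 of the 9 were called, where 11.2% of all genes tested were called higher and 7.16% lower. In that contrast edgeR's unadjusted p was under 0.05 for 0 as well, and neither DESeq2 nor limma's voom test made a call. The median log2 difference of the 9 GTPases between breast and lung was −0.78, beside 1.18 for the 40 genes. The difference between the lists was not tested. Gbp2b, which did not pass the filter on low counts, was listed at 81.2 to 258 CPM in lung replicates 7, 9, 11 and 13. It was at 0.0778 and 0.166 CPM in lung replicates 8 and 10 and at 0 to 0.630 CPM in breast.

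Gbp5 was lower in melanoma than in lung by −3.14 ± 0.67 (adjusted p = 0.00157) and differed by 0.20 ± 0.61 between breast and lung (adjusted p = 0.865), and Gbp3 by −2.56 ± 0.67 (adjusted p = 0.0079) and 0.00 ± 0.63 in the same contrasts. The GTPases Gbp4, Gbp6, Gbp9 and Gbp10 were listed at 0 in all libraries, as was the neuronal gene Tubb3, so a listed 0 is no measure of absence.

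Of 12 genes of MHC class I presentation, 3 were lower in melanoma than in lung, 2 were higher in breast than in lung and 9 were lower in melanoma than in breast. Of all genes tested, 14.7%, 11.2% and 19.2% were called in these directions. The first 2 counts are not far above that background. H2-K1, a class I heavy chain, was lower in melanoma than in lung by −2.48 ± 0.53 (adjusted p = 0.00149) and than in breast by −3.29 ± 0.55 (adjusted p = 0.000106). Erap1, which trims peptides for class I, was higher in breast than in lung by 1.19 ± 0.34 (adjusted p = 0.0196). The promoters of the GTPase and MHC class I lists held the response element core in 54.5% of their 22 promoter windows and TTCNNNGAA in 31.8%, the first share close to that of the 40 genes and the second above it, with no test.

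**Figure D5:**
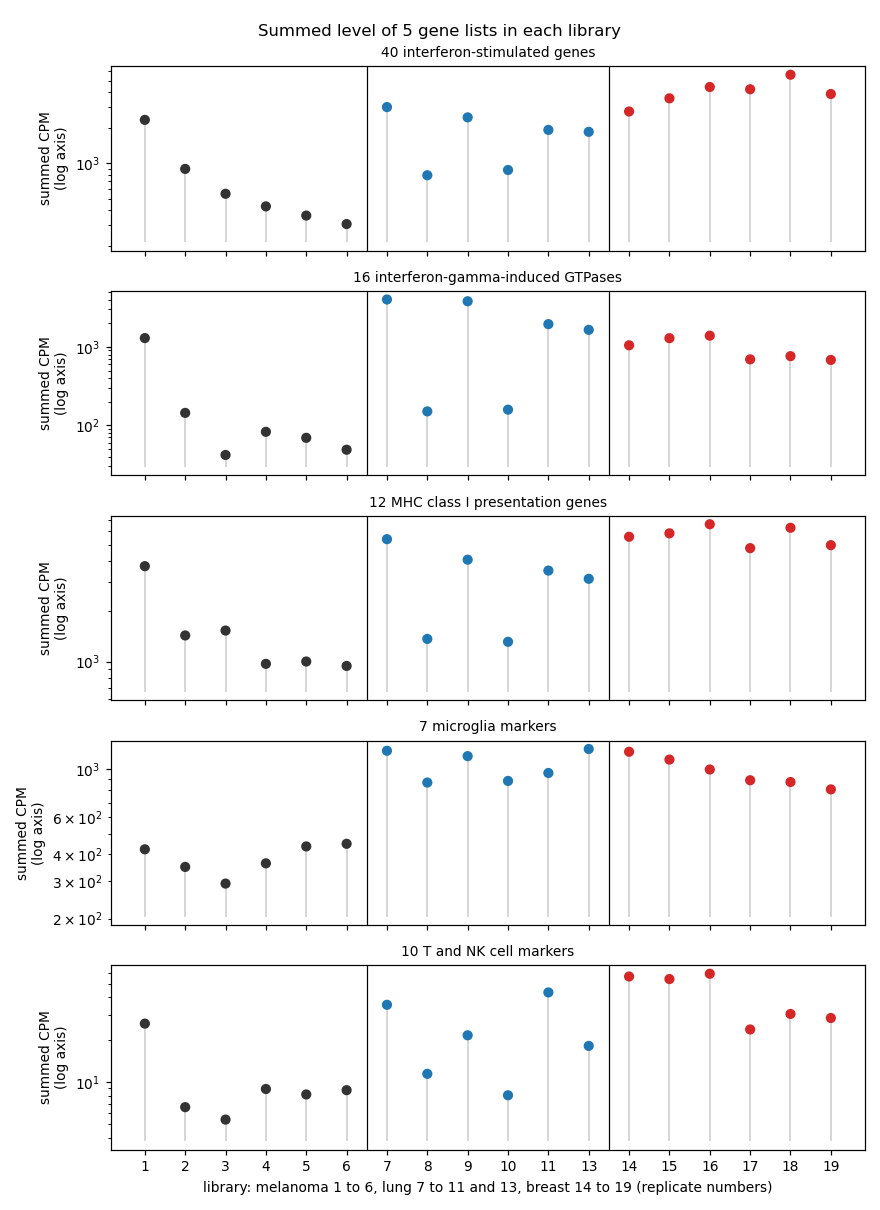
Summed CPM (log axis) of 5 gene lists in each of the 18 libraries, by replicate number. The 40 interferon-stimulated genes are highest in breast replicate 18 at 5599 CPM, whereas the interferon gamma GTPases are highest in lung replicate 7 at 4021 CPM.

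Markers of several other cell types differed among the models. The 5 oligodendrocyte markers had 0 calls in every contrast. Of the 4 neuron markers tested only Snap25 was called, higher in melanoma than in breast. For the counts that follow, 14.7% of all genes tested were called lower in melanoma than in lung and 19.2% lower than in breast. Between breast and lung, 11.2% were called higher and 7.16% lower in breast. The 7 microglia markers, all detected, summed to 292 to 448 CPM in melanoma, 868 to 1247 CPM in lung and 807 to 1211 CPM in breast. Of these 6 were lower in melanoma than in lung, 5 were lower in melanoma than in breast and 0 were called between breast and lung, where edgeR gave 1 at an unadjusted p under 0.05. The 6 monocyte and macrophage markers summed to 11.05 to 39.8 CPM in melanoma, 57.9 to 118 CPM in lung and 119 to 164 CPM in breast, and the 5 neutrophil markers to 4.29 to 8.16, 25.7 to 212 and 95.3 to 285 CPM. Melanoma was lower for 5 of the 6 and 4 of the 5 against lung and for 5 of the 6 and 5 of the 5 against breast, and breast was higher than lung for 2 and 1 of them and lower for 1 and 0. The 5 astrocyte markers summed to 997 to 1324 CPM in melanoma, 2613 to 4370 CPM in lung and 2800 to 3174 CPM in breast. Of these 3 (Gfap, Aqp4 and Gja1) were lower in melanoma than in lung, 4 were lower in melanoma than in breast, and edgeR gave 0 between breast and lung, at an unadjusted p under 0.05 as well.

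The 10 T and NK cell markers summed to 5.41 to 26.03 CPM in melanoma, 8.05 to 43.4 CPM in lung and 23.7 to 58.9 CPM in breast. Of the 8 that could be tested, 6 were lower in melanoma than in breast, against 19.2% of all genes tested. Only 1 was lower in melanoma than in lung and 1 was higher in breast than in lung, near the background of 14.7% and 11.2%. Cd3e was at 0 in melanoma replicates 3 to 6 and lung replicate 10. In melanoma replicate 1, where all 40 genes were highest, the T and NK cell sum was 26.03 CPM beside 5.41 to 8.92 CPM in the other melanoma libraries. Where this sum was low it was mostly Cd4, as in melanoma replicate 6 with 8.59 of 8.75 CPM. Cd4 itself stood at 5.88 CPM in melanoma replicate 1, within the 5.25 to 8.59 CPM of the other melanoma libraries. Each of the other T and NK cell markers was highest in melanoma replicate 1 among these libraries, Gzmb at 5.59 CPM beside 0 to 0.185 CPM. In melanoma replicate 1 the monocyte and macrophage sum was 39.8 CPM, beside 11.05 to 14.3 CPM in the other melanoma libraries. Its microglia sum of 422 CPM and its neutrophil sum of 6.54 CPM lay within their ranges. Csf3r made up 6.40 CPM of that neutrophil sum. S100a8 and S100a9 were both at 0.0735 CPM there, the lowest of the melanoma libraries, and Ly6g and Cxcr2 were at 0. The astrocyte sum of melanoma replicate 1, 997 CPM, lay below the 1165 to 1324 CPM of the other melanoma libraries. Its markers went different ways. Slc1a3 and Gja1 were lowest in that library, and Gfap and Aqp4 lay within the range of the others. Aldh1l1 was highest there, at 95.1 CPM beside 68.9 to 86.4 CPM. Lung replicates 8 and 10, where the genes were lowest, had T and NK cell sums of 11.4 and 8.05 CPM, below the other 4 lung libraries. Cd4 made up 10.4 and 7.55 CPM of these 2 sums, and stood at 5.63 to 8.49 CPM in the other lung libraries. Replicates 8 and 10 were also the lowest lung libraries for microglia markers, at 868 and 884 CPM beside 963 to 1247 CPM. The same held for neutrophil markers, at 30.2 and 25.7 CPM beside 31.8 to 212 CPM. For monocyte and macrophage markers, replicate 10 was lowest at 57.9 CPM. Replicate 8, at 71.3 CPM, lay above replicate 11 at 66.9 CPM. Mrc1 made up 47.8 and 32.6 CPM of the sums of replicates 8 and 10. Ccr2, at 6.92 and 7.63 CPM, was lower in replicates 8 and 10 than in every other lung library. So was Ly6c2, at 0.856 and 1.41 CPM. Mrc1, Ms4a7 and Pf4 were lowest in replicate 11, and Cd163 was lowest in replicate 9. The astrocyte sums of replicates 8 and 10, at 3204 and 2747 CPM, lay within the range of the other lung libraries. The part of these cell types in the levels of the 40 genes was not tested, and the models differ in tumour cells and in these markers at once, which cannot be told apart here.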

How the data were processed

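The 40 genes and all lists were chosen with earlier results of these data known. Poly(A)+ RNA from the peritumoral tissue of 18 brains was made into directional libraries, per the labels' protocols. The build was GRCm39 and reads were demultiplexed with bcl2fastq, per the submitters' processing notes; no source used here names the aligner, the counter, the annotation or its strandedness, so reads of overlapping genes may be shared. The deposited table holds raw counts per gene, not normalized by the authors, and a second deposited table holds CPM for 16925 genes, in which 27 of the 40 had a row and 26 had the same reads (100% of the CPM values came out as whole reads, within 0.01; the row under the name of Sp100 held other reads). Symbols and transcript lengths came from GENCODE on GRCm38 by gene ID, matching 52083 IDs (94.0%, with 99.8% of reads).

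Counts were fitted with edgeR 4.0.16 in R 4.3.3 (robust quasi-likelihood test, TMM factors, filterByExpr, 1 coefficient per model, 18 libraries), with Benjamini-Hochberg adjustment over 17174 genes and calls at an adjusted p under 0.05. The SE is that of the log2 fold change implied by the test. The fit was tested on simulated data. Alternatives were other scalings, other filters, DESeq2 1.42.0, limma 3.58.1 (voom, and log2 of the deposited CPM + 1), the 12 libraries of the models compared, each library left out, 2 groups of libraries left out, both chosen with earlier results of these libraries known, and, added after seeing the files, reads recovered from the CPM. No pair of libraries was identical (smallest chi-square per degree of freedom 2.82).

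Values were named for the 2 genes of each role group with the smallest p among the models, the 5 largest called rises and falls of each contrast, genes called in no contrast, Stat2, Irf9, Irf7, Ifnb1 and Ifng, up to 3 genes of each pathway list and 2 of each comparison list. Ifnar1 and the genes given without levels were named after their values were seen. 1 further gene that the rule names is not reported here.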

Additional observations from a re-analysis of the deposited data

Results flagged for a closer look

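In 108 sets of 6 libraries, over the 36 genes named, 6 values stood apart from the other 5 libraries of their model by Dixon's criterion, which chance meets in about 1 of 20 sets. Melanoma replicate 1 held 5 of them. Sp100 was at 28.7 CPM there, beside 3.68 to 7.48 CPM in the other melanoma libraries. Irf5 was at 11.7 CPM beside 3.84 to 4.46 CPM. H2-K1 was at 235 CPM beside 33.3 to 60.0 CPM, and Erap1 at 63.6 CPM beside 13.8 to 22.4 CPM. Ifng was at 0.515 CPM beside 0 to 0.0826 CPM. In breast replicate 19, Tlr7 was at 14.6 CPM, below the 22.9 to 27.2 CPM of the other breast libraries.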

How the results depend on the processing

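Over all settings, no called log2 fold change of the 40 genes changed sign, and in 94 of 2020 cases it no longer passed; calls in the other lists are not in these numbers. Leaving out each library in turn gave 12 to 38 of the 40 genes lower in melanoma than in lung and 8 to 23 higher in breast than in lung, and 35 to 39 lower in melanoma than in breast. The melanoma and lung count was 29 with limma's voom test, 9 with reads recovered from the CPM (which cover 26 of the genes) and 38 without melanoma replicate 1 and lung replicates 8 and 10, a group chosen with the levels of immune genes known, so that counts without it show no stability. The breast and lung count was 24 with voom, 26 in the 12 libraries compared and 8 without the 3 libraries poor in long transcripts. Recovered reads gave 25 genes lower in melanoma than in breast and 24 differing among the models. The median log2 difference of the 40 genes was −2.59 for melanoma to lung and −3.42 for melanoma to breast without melanoma replicate 1 and lung replicates 8 and 10. TTCNNNGAA was in 2 genes within the 150 bases before the start.

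For the other lists the counts were small and moved more. Calls between melanoma and lung numbered 8 GTPases with voom, 2 with limma on the deposited CPM, 2 with recovered reads, 10 without the 3 libraries named first and 4 to 9 with 1 library left out; of MHC class I genes, 8 with voom, 1 without a filter, with recovered reads, in 12 libraries or without the long-poor libraries, 11 without the 3 libraries, and 1 to 11 with 1 library left out. Between breast and lung they numbered 2 pathway genes without a filter, 3 with recovered reads, 8 in 12 libraries, 8 without the 3 libraries and 2 to 7 with 1 left out; 1 GTPase without a filter or the long-poor libraries, 7 without the 3 libraries and 0 to 1 with 1 left out; and 1 MHC class I gene with DESeq2's or upper-quartile factors, no filter, recovered reads or no long-poor libraries, and 1 to 3 with 1 left out. Between melanoma and breast, GTPase calls were 2 without a filter, 8 with voom, 2 with limma on CPM, 1 with recovered reads, 2 without the long-poor libraries, 9 without the 3 libraries and 2 to 9 with 1 left out, and MHC class I calls 5 without a filter or the long-poor libraries and 5 to 12 with 1 left out. The cause of these moves was not tested. The recovered reads hold fewer genes, and the settings with libraries left out hold fewer samples. No paired analysis was possible because the models share no replicate numbers.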
